A study of Mus musculus with 24 samples.

Results

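The diet by genotype difference asks, for each gene, whether kidney cortex answered a low protein diet differently in mice without FGF21 than in wild-type mice. It was computed as the low protein effect in FGF21 KO mice (KO_LP against KO_NP) minus the low protein effect in wild-type mice (WT_LP against WT_NP). All 24 libraries of the series entered it, 6 in each of 4 groups, and 15165 of the 16921 genes in the deposited tables passed the filter on low counts and were tested. A value above 0 means that the gene was higher on low protein in KO mice relative to its behaviour in wild-type mice, and a value below 0 the reverse.

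The mice were C57BL6/J males of 22 months, either wild type (WT) or FGF21 KO, which the labels do not describe further. From 3 months of age they ate freely either a normal protein diet with 20% casein (NP) or a low protein diet with 5% casein (LP). RNA of frozen cortex was sequenced with Lexogen QuantSeq, which reads the 3′ end of transcripts, so a count stands for a transcript and needs no correction for length. Fgf21 and its co-receptor gene Klb were not among the genes of the deposited counts, so the KO label could not be checked on the targeted gene.

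FGF21 is a hormone made mainly by the liver. Its secretion is known to increase when dietary protein is restricted, and it acts on cells that carry an FGF receptor together with beta-Klotho. Many effects of protein restriction on feeding and energy expenditure are known to need it.

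Libraries held 8469102 to 21063652 counts, and mitochondrially encoded transcripts took 18.5% to 30.5% of them. Markers of cortex were present in every library, including Lrp2 and Slc34a1 of the proximal tubule, Umod of the thick ascending limb and Slc12a3 of the distal tubule. Replicate 1 of WT_NP stood apart from the other WT_NP mice, with the highest levels of macrophage, T cell, B cell and tubular injury genes in that group. Replicates 4 and 6 of KO_LP had the lowest levels of proximal tubule markers in the series, so results are given below also without these 3 libraries. Replicate 3 of WT_LP was kept, although it was much like replicate 1 of WT_NP. On a log2 scale its proximal tubule S1/S2 marker level was 8.51 against 8.53, and its tubular injury level 5.61 against 5.68. Cortex is a mixture of cells, and in such samples a smaller number of cells of a type cannot be told apart from less RNA per cell.

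No gene passed the test for a difference of the diet effects at an adjusted p under 0.05, which is 0.0% of the genes tested (edgeR quasi-likelihood test, Benjamini-Hochberg adjustment). The lowest adjusted p was 0.158. At an unadjusted p under 0.05 there were 2430 genes, 16.0% of those tested, where 5% would be 758 genes; 1498 (9.88%) had values above 0 and 932 (6.15%) below 0. Under voom with quality weights, limma on log2 normalized values and edgeR with 1 surrogate variable the count of calls was also 0. DESeq2 was the exception with 117 calls, 0.772% of the genes it tested, 60 of them above 0 (0.396%) and 57 below 0 (0.376%). All 117 were among the 2430 genes, which were found in the same counts. Effects of opposite sign in the 2 genotypes were found in 109 of the 117, against 7451 of all 15165 genes. Choosing genes for a large difference favours opposite signs, so this count is a description. Differences named below are therefore estimates, given with their standard errors (SE), and none of them is a call.

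The 2 diet effects that make up the difference were unequal in their calls. In KO mice 1087 genes changed on low protein (7.17% of the genes tested), of which 544 rose (3.59%) and 543 fell (3.58%). In wild-type mice the same fit called 0 genes (0.0%), with 580 genes (3.82%) at an unadjusted p under 0.05, and DESeq2 called 16. On each diet taken alone, KO and wild-type mice differed in 87 genes on NP (0.574%) and 445 on LP (2.93%). These counts of calls rested on few libraries. The KO count was 36 without the 3 libraries that stood apart, 4 with 1 surrogate variable, 1759 without replicate 1 of WT_NP and 2006 without replicate 1 of KO_LP. It was 454, 623, 399, 122 and 460 without replicates 1, 3, 4, 5 and 6 of KO_NP, and 136, 593 and 466 without replicates 4, 5 and 6 of KO_LP. The NP count was 52 without replicate 1 of KO_NP and 151 without replicate 6 of KO_LP. The LP count was 180, 233, 733, 268 and 263 without replicates 1, 2, 3, 5 and 6 of WT_LP, 208 without replicate 4 of KO_LP and 708 without replicate 1 of WT_NP. A call in KO mice and none in wild-type mice is not a test that the genotypes differ. Of the genes that rose in KO mice, 430 of 544 had a difference at an unadjusted p under 0.05, as did 408 of the 543 that fell, but the KO effect is part of that difference.

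CPM are counts scaled to a common library total. Among genes whose mean reached 5 CPM, the diet effects had an SD across genes of 0.16 in wild type and 0.33 in KO mice on the log2 scale. The KO effect was the larger in size for 10919 of all 15165 genes and for 2167 of the 2430. Effects of opposite sign were found in 7451 of the 15165 genes, and in 2003 of the 2430, where the choice of genes favours them. A stricter pattern, in which each genotype's own effect had an unadjusted p under 0.05 and the signs were opposite, was met by 51 genes or 0.336% of those tested. In 38 of the 51 the estimate was below 0 in wild-type and above 0 in KO mice, and in 13 the reverse; 98 genes had both effects at that p in the same direction. The 51 became 20, 79, 102 and 93 without replicates 1, 3, 4 and 5 of WT_NP, 31 without replicate 1, 2 or 5 of WT_LP and 151 without replicate 3 of WT_LP.

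**Figure D1:**
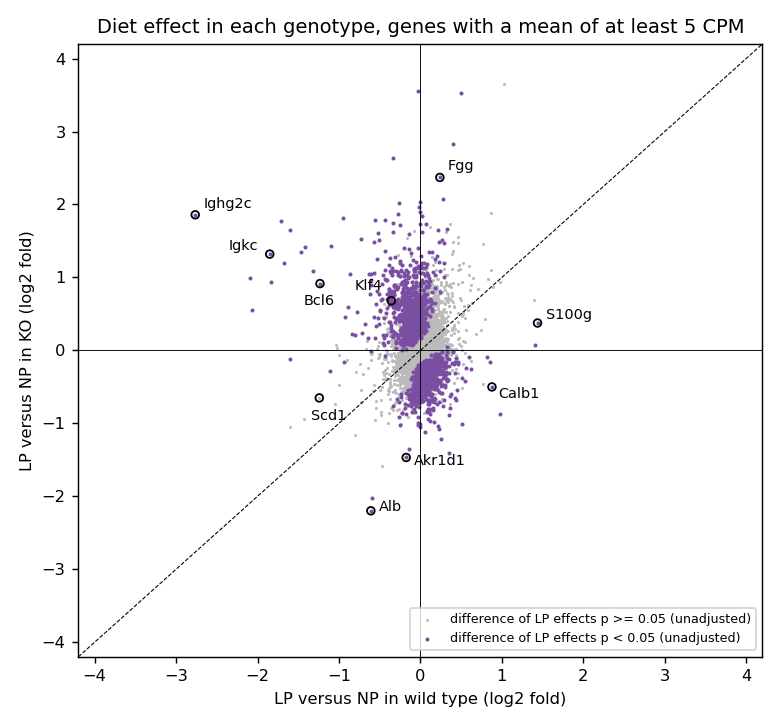
Low protein effect in wild-type mice (horizontal axis, log2 fold) against that in KO mice (vertical axis, log2 fold), 1 point per gene with a mean of at least 5 CPM; purple points have a difference at an unadjusted p under 0.05, and the dashed line marks equal effects. The cloud is taller than it is wide, Ighg2c and Igkc lie at upper left and Calb1 at lower right.

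How the wild-type mice behaved for the genes called in KO mice depended on single libraries. With all 24 libraries, the wild-type estimate was above 0 for 278 of the 544 genes that rose in KO mice, with a median of 0.00, while 7198 of all 15165 genes were above 0. It was below 0 for 338 of the 543 genes that fell in KO mice, with a median of −0.03. Without replicate 1 of WT_NP, 400 of the 543 risen genes still tested were above 0, with a median of 0.11, and 416 of the 543 fallen genes were below 0, with a median of −0.07. Across the other single libraries left out, risen genes above 0 ran from 198 (without replicate 3 of WT_LP) to 325 (without replicate 5 of WT_LP). Fallen genes below 0 ran from 264 (without replicate 3 of WT_LP) to 408 (without replicate 2 of WT_LP). The choice of these genes used no wild-type mean, although all groups shared the estimate of spread.

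Replicate 1 of WT_NP also moved the relation of the 2 effects across genes. Pearson's r between the wild-type and the KO effect over 15165 genes was −0.04 with all libraries and 0.31 without replicate 1 of WT_NP. Leaving out any other library gave values from −0.23, without replicate 3 of WT_LP, to 0.07, without replicate 2 of WT_LP. The 2 effects share no library, but genes are not independent replicates and these values are descriptions. The number of genes at an unadjusted p under 0.05 for the difference ran from 1671 without replicate 1 of WT_NP to 2973 without replicate 3 of WT_LP. It was 978 without the 3 libraries that stood apart. Replicate 3 of WT_LP, whose removal raised the number from 2430, was not among those 3, so values without the 3 are not a neutral check.

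**Figure D2:**
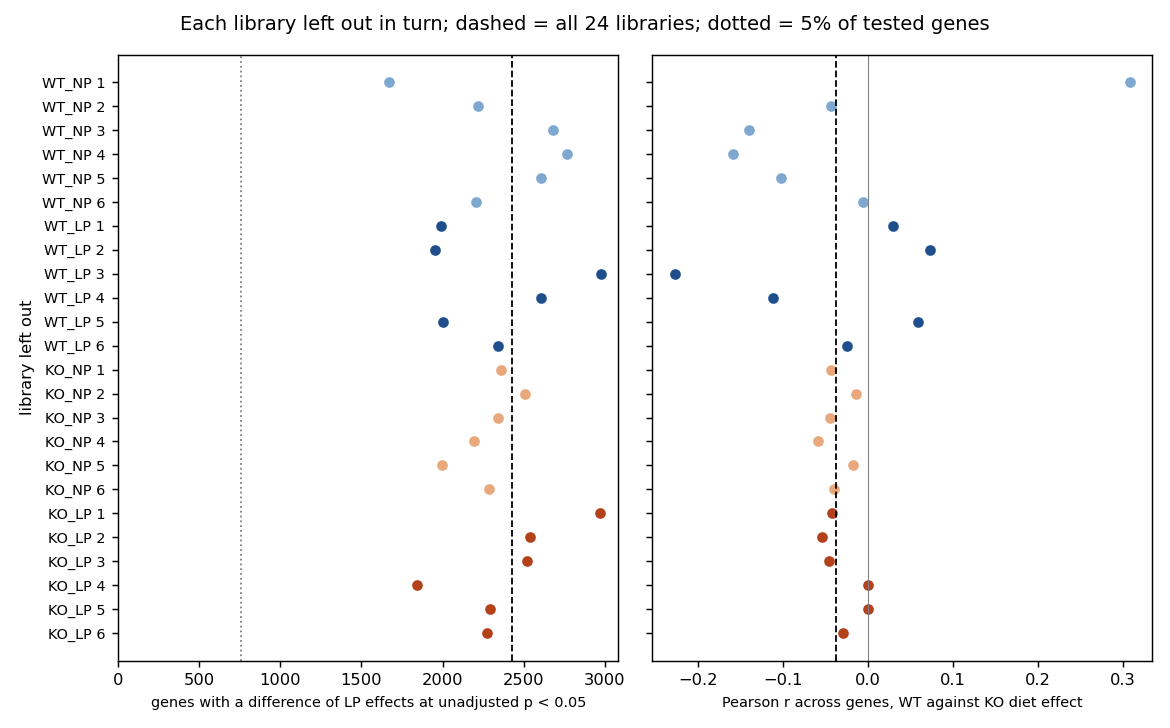
Left, number of genes with a difference of diet effects at an unadjusted p under 0.05 when each library in turn is left out; right, Pearson's r across genes between the wild-type and KO diet effects in the same fits. Dashed lines mark all 24 libraries and the dotted line 5% of the tested genes; the point without replicate 1 of WT_NP is the lowest at left, at 1671, and the highest at right, at 0.31.

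Values of gene lists moved with these libraries too. The fit with 1 surrogate variable adds a covariate estimated from the expression values, on which replicate 1 of WT_NP and replicate 4 of KO_LP had the lowest values. This covariate ran from 0.03 to 0.26 in KO_NP and from −0.50 to 0.14 in KO_LP. It ran from −0.43 to 0.20 in WT_NP and from −0.27 to 0.23 in WT_LP. It thus partly followed diet in KO mice, so this fit cannot separate a difference of diet effects from other variation. In this fit, 44 of 57 list medians of the difference were closer to 0 and 22 lay on the other side of 0. List values are therefore given with those of other fits, and the median over all genes tested was 0.01 with the surrogate variable and also without the 3 libraries. Effects of opposite sign, at 7451 of 15165 genes with all libraries, were found in 5947 of 15217 without replicate 1 of WT_NP. Genes at an unadjusted p under 0.05 for the difference were 2430 of 15165 with all libraries and 1671 of 15217 without that library. They were 978 of 15327 without the 3 libraries and 1121 of 15165 with the surrogate variable. List counts in each fit are to be read against these.

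Calb1 was the gene with the smallest p among those with at least 5 CPM and an established symbol in which each genotype's effect had an unadjusted p under 0.05 and the directions were opposite. It encodes calbindin-D28k, which carries calcium through the cells of the distal and connecting tubule, and lies at chr4:15881264-15908064 (GRCm38). Its lowest, median and highest values were 58.2, 108 and 151 CPM in WT_NP and 145, 208 and 235 CPM in WT_LP. In KO mice they were 130.4, 149.7 and 246 CPM on NP and 83.3, 130.5 and 144 CPM on LP. The wild-type groups overlapped by the highest WT_NP and the lowest WT_LP library, and the KO groups overlapped more. The log2 effect was 0.88 ± 0.20 (SE, n = 6 per group) in wild type and −0.50 ± 0.20 in KO mice, and the difference was −1.38 ± 0.29 (adjusted p = 0.158). It stayed between −1.50 and −1.24 when any library was left out, and DESeq2 gave −1.40 with an adjusted p of 0.00999.

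The other distal and connecting tubule markers had estimates on the same side. All 11 tested members of that list had a difference below 0, with a median of −0.56 against 0.03 over all genes tested, and 5 of 11 had an unadjusted p under 0.05 against the 16.0% of all genes. That count was 8 without replicate 4 of WT_NP or replicate 3 of WT_LP and 3 without replicate 6 of WT_LP or replicate 2 of KO_NP. The median was 0.29 in wild type and −0.27 in KO mice. S100g, the gene of calbindin-D9k, another calcium carrier of these cells, had means of 266 and 720 CPM in wild-type mice on NP and LP and of 392 and 508 CPM in KO mice, so its KO estimate was also above 0 and only smaller, with a difference of −1.06 ± 0.37 (adjusted p = 0.220). Kl, the gene of Klotho and co-receptor for FGF23 in these cells, had medians of 144 and 178 CPM in wild-type mice on NP and LP and of 226 and 118 CPM in KO mice. Its 4 groups overlapped, and the difference was −1.07 ± 0.37 (adjusted p = 0.217). The median of the list was −0.41 without replicate 1 of WT_NP, −0.31 without the 3 libraries and −0.34 with the surrogate variable. Fgfr1, an FGF receptor, had group medians between 27.4 and 32.7 CPM and a difference of 0.19 ± 0.11 (adjusted p = 0.424).

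Akr1d1, which encodes the 5-beta reductase of bile acid and steroid metabolism, fell in KO mice on low protein. Its lowest, median and highest values were 7.26, 10.8 and 14.7 CPM in WT_NP and 6.55, 9.54 and 13.2 CPM in WT_LP. In KO_NP they were 9.60, 15.5 and 17.7 CPM and in KO_LP 3.25, 5.04 and 9.08 CPM. The KO groups did not overlap and the wild-type groups did. The log2 effect was −1.47 ± 0.21 in KO (adjusted p = 0.00382) and −0.17 ± 0.20 in wild-type mice, and the difference was −1.29 ± 0.29 (adjusted p = 0.158).

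Several abundant genes showed small differences with tight groups. Ank3, the gene of ankyrin-G, which anchors membrane transporters to the cytoskeleton, had medians of 239.8 and 259 CPM in wild-type mice on NP and LP. In KO mice it ran from 249.9 to 311 CPM on NP and from 178 to 234 CPM on LP, with no overlap. It fell in KO mice (adjusted p = 0.0195), and its difference was −0.54 ± 0.12. Pyurf, whose product serves coenzyme Q synthesis in mitochondria, ran from 34.5 to 41.6 CPM in KO_NP and from 25.7 to 33.0 CPM in KO_LP, and had medians of 36.0 and 37.4 CPM in wild-type mice. It also fell in KO mice (adjusted p = 0.00954), with a difference of −0.49 ± 0.10. Smim20, a small protein of cytochrome c oxidase assembly, fell in KO mice (adjusted p = 0.0232) and had wild-type medians of 28.7 and 32.1 CPM, with a difference of −0.42 ± 0.09. Riox2, a ribosomal oxygenase, had a difference of −0.50 ± 0.11 with non-overlapping KO groups of 21.2 to 25.3 CPM on NP and 13.6 to 17.9 CPM on LP.

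Among genes with estimates above 0, Banp, which encodes a nuclear protein that binds unmethylated CG motifs, had most of its difference in wild-type mice. It ran from 17.2 to 35.9 CPM in WT_NP and from 9.15 to 19.8 CPM in WT_LP, with medians of 15.4 and 17.9 CPM in KO mice on NP and LP. The wild-type groups overlapped in part. Its log2 effect was −0.84 ± 0.18 in wild type and 0.22 ± 0.18 in KO mice, with a difference of 1.07 ± 0.25. Inava, a gene of epithelial junctions, rose in KO mice (adjusted p = 0.0214), from 6.23 to 8.54 CPM on NP to 8.59 to 15.5 CPM on LP, and had wild-type medians of 7.56 and 6.47 CPM. Tram2, a translocon protein used in collagen synthesis, rose in KO mice as well (adjusted p = 0.0171), with a difference of 1.004 ± 0.24. S1pr4, a sphingosine phosphate receptor of lymphocytes, was near 1 to 3 CPM throughout, rose in KO mice (adjusted p = 0.0129) and had a difference of 1.55 ± 0.33. The adjusted p of the difference was 0.158 for each of these 4 genes.

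Of the 20 genes with the smallest p, 9 had differences below 0 and 11 above 0. None changed direction in any alternative fit, and DESeq2 called all 20, but these genes were chosen for their small p in the same libraries. A change of direction was therefore unlikely from the outset, and these fits are not separate evidence. The remaining members were Gm26532, Gm43190, Hhatl, Nipal1, Csrnp3, Gm44220, Krtcap3, Calhm5, Plp2 and Ighg2c. Gm43190 lies in the intron of another gene on the same strand, so its reads cannot be told apart from that gene's unspliced RNA.

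**Figure D3:**
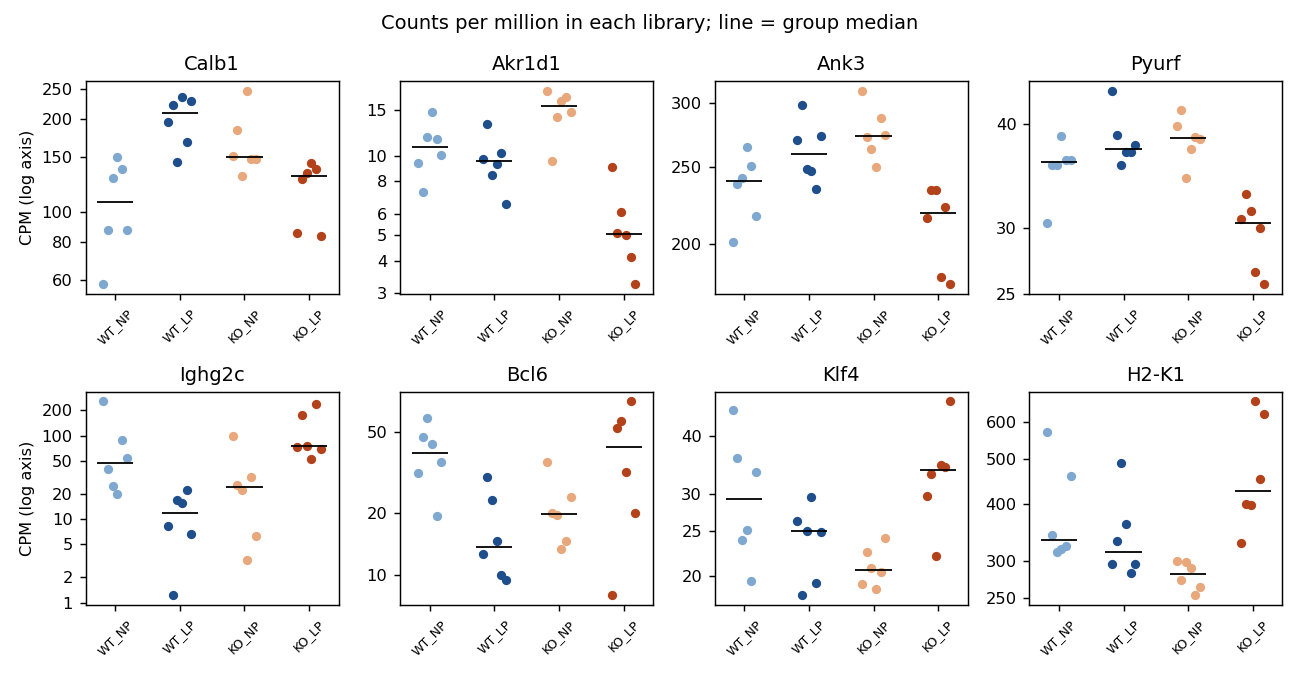
CPM of 8 genes in each library (vertical axis, log scale) by group (horizontal axis); the line is the group median. Calb1 is highest in WT_LP, Akr1d1, Ank3 and Pyurf are lowest in KO_LP, and the KO_LP libraries of Bcl6 run from 7.97 to 70.4 CPM.

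The largest differences with opposite estimates belonged to genes of B and plasma cells, the lymphocytes that make antibody. All 19 tested markers of the list had a difference above 0, with a median of 2.81, and 17 of 19 had an unadjusted p under 0.05. Over all genes tested, 16.0% had that p. The wild-type estimate was below 0 for all 19, with a median of −1.09, and the KO estimate was above 0 for 18 of 19, with a median of 1.65, but no member passed the test in either genotype. The level of the list, as mean log2(CPM + 1) of its members, ran from 3.33 to 5.67 in WT_NP, 2.67 to 4.42 in WT_LP, 3.43 to 4.69 in KO_NP and 3.66 to 6.20 in KO_LP, so all 4 ranges overlapped. Without replicate 1 of WT_NP, which held the 5.67, the wild-type median was −0.59, the median difference was 2.15 and 10 members had an unadjusted p under 0.05. With the surrogate variable the medians were −0.89 in wild type and 0.08 in KO mice and the median difference was 0.92, with 3 members at that p.

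Ighg2c, a heavy chain constant region at chr12:113285325-113288932, had lowest, median and highest values of 20.1, 46.9 and 256 CPM in WT_NP and 1.23, 11.9 and 22.2 CPM in WT_LP. In KO mice they were 3.24, 23.96 and 99.9 CPM on NP and 52.7, 74.6 and 237 CPM on LP. Its difference was 4.62 ± 1.04 (adjusted p = 0.158) and was 3.79 without replicate 1 of WT_NP. Igkc, the kappa light chain constant region, had medians of 2027 and 1073 CPM in wild-type mice on NP and LP and of 1721 and 3262 CPM in KO mice. It ran from 808 to 10608 CPM in WT_NP and from 308 to 1899.5 CPM in WT_LP. In KO mice it ran from 1243.5 to 2634 CPM on NP and from 1208 to 13463 CPM on LP. The highest values were those of replicate 1 of WT_NP and replicate 5 of KO_LP, and the next highest there were 5282 and 3624 CPM. The difference of Igkc was 3.17 ± 0.83 (adjusted p = 0.158). Pou2af1, a transcription cofactor of B cells, had a difference of 3.25 ± 0.82. Constant region genes have near-identical copies, so the assignment of counts among them is uncertain.

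Markers of T and natural killer cells also had estimates of opposite sign, in 15 of 17 members against 7451 of all 15165 genes. Of 17 tested, 16 had a difference above 0 and 13 an unadjusted p under 0.05, against 16.0% of all genes. The median was 1.71, made of −0.50 in wild type and 1.15 in KO mice. Without replicate 1 of WT_NP the wild-type median was −0.09, so the wild-type side of the pattern rested mainly on that library. In that fit 10 of 17 members had opposite signs, against 5947 of 15217 genes. The median difference was 0.55 with the surrogate variable, with 1 member at an unadjusted p under 0.05. Icos, a costimulatory receptor of T cells, had medians of 1.59 and 1.24 CPM in wild-type mice on NP and LP and of 1.14 and 2.70 CPM in KO mice. It rose in KO mice (adjusted p = 0.0267) and its difference was 2.12 ± 0.56 (adjusted p = 0.158). Macrophage and dendritic markers did not share the opposite signs: their median was 0.29 in wild type and 0.97 in KO mice. Their median difference of 0.72 was 0.30 without replicate 1 of WT_NP, 0.44 without replicate 4 of KO_LP, −0.31 with the surrogate variable and 0.03 without the 3 libraries, while that of the T cell list was 1.05 and that of the B cell list 2.18 without those 3.

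**Figure D4:**
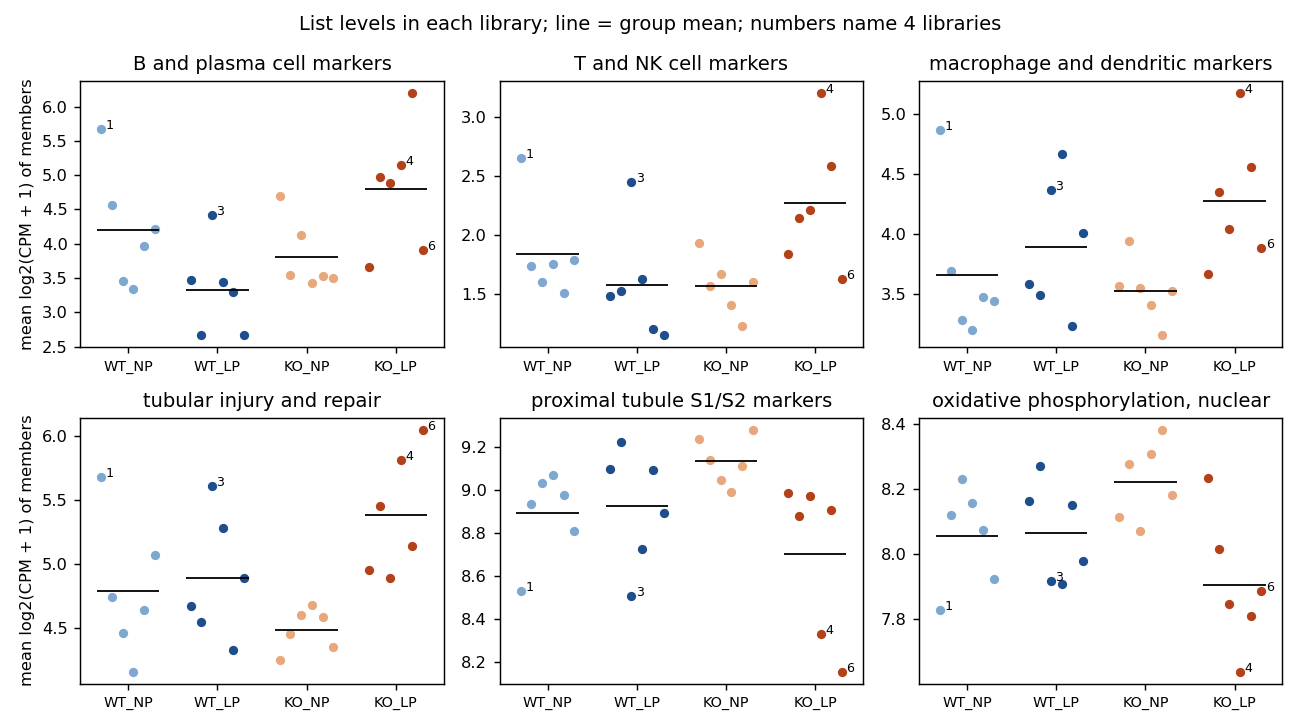
Level of 6 gene lists in each library (vertical axis, mean log2(CPM + 1) of the members) by group; lines are group means, and numbers mark replicate 1 of WT_NP, 3 of WT_LP and 4 and 6 of KO_LP. Replicate 1 of WT_NP has the highest immune and injury levels of its group, and replicates 4 and 6 of KO_LP the lowest proximal tubule levels.

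Genes of antigen presentation and of the interferon response had differences above 0 that rested mainly on the KO effect. Of 17 MHC class I genes tested, which present peptides to T cells, 16 had values above 0, with a median of 0.73. An unadjusted p under 0.05 was found in 12 of 17, against 16.0% of all genes. The count at that p was 7 without replicate 1 of WT_NP or replicate 4 of KO_LP and 3 without the 3 libraries, where the median was 0.34; the median was 0.19 with the surrogate variable. H2-K1 had lowest, median and highest values of 315, 334 and 572 CPM in WT_NP and 283, 314 and 489 CPM in WT_LP. In KO mice they were 254, 282 and 301 CPM on NP and 328, 426 and 664 CPM on LP, with no overlap. It rose in KO mice (adjusted p = 0.0214), and the difference was 0.95 ± 0.24 (adjusted p = 0.158), although reads of the class I genes can be shared among near-identical copies. All 9 MHC class II genes were above 0, with a median of 0.88, which was 0.52 without replicate 1 of WT_NP, 0.34 without the 3 libraries and −0.03 with the surrogate variable, on the other side of 0. Of 39 interferon-stimulated genes, 37 were above 0, with a median of 0.69. An unadjusted p under 0.05 was found in 17 of 39, against 16.0% of all genes. That count was 8 without replicate 1 of WT_NP or replicate 4 of KO_LP, 10 without replicate 5 of WT_LP, 11 without replicate 5 or 6 of KO_NP and 29 without replicate 3 of WT_LP. The median was 0.45 without the 3 libraries and 0.18 with the surrogate variable, where 1 member had an unadjusted p under 0.05. Irf1, an interferon-induced transcription factor, had a difference of 0.76 ± 0.26 (adjusted p = 0.215) and Tap1, a peptide transporter, of 1.05 ± 0.37 (adjusted p = 0.220).

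Immediate early genes encode transcription factors induced within minutes of a stimulus. They had estimates of opposite sign in 19 of 23 members, against 7451 of all 15165 genes. Their median was −0.30 in wild type and 0.70 in KO mice. A difference above 0 with an unadjusted p under 0.05 was found in 17 of 23, against 9.88% of all genes, and none lay below 0 at that p. Without replicate 1 of WT_NP the wild-type median was −0.01, so the wild-type side again depended on that library. In that fit 13 of 23 members had opposite signs, against 5947 of 15217 genes, and 13 had a difference at that p, against 1671. Replicate 6 of WT_NP was also high, with a list level of 4.25 against 4.42 in replicate 1 and 3.78 in replicate 2, the next highest. Klf4 had lowest, median and highest values of 19.5, 29.3 and 45.6 CPM in WT_NP and 18.2, 24.9 and 29.6 CPM in WT_LP. In KO mice they were 18.7, 20.6 and 24.1 CPM on NP and 22.0, 33.8 and 47.5 CPM on LP. Each pair of groups overlapped; Klf4 rose in KO mice (adjusted p = 0.0314), with a difference of 1.04 ± 0.25 (adjusted p = 0.158). Jun had a difference of 0.96 ± 0.28 (adjusted p = 0.172). The median difference of the list was 0.96 with all libraries, 0.46 without the 3 that stood apart, with 5 members at an unadjusted p under 0.05, and 0.53 with the surrogate variable.

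Tubular injury genes had a median difference of 1.04, made of 0.03 in wild type and 1.004 in KO mice. Of 36 tested, 21 had a difference above 0 at an unadjusted p under 0.05, against 9.88% of all genes. The median was 0.61 without replicate 1 of WT_NP, where 12 were above 0 at that p, 0.33 without the 3 libraries and 0.30 with the surrogate variable. Krt19, a keratin of simple epithelia, was the member with the smallest p, and its estimate was −1.11 ± 0.47 in wild type and 1.46 ± 0.50 in KO mice (difference 2.57 ± 0.68, adjusted p = 0.158). Sox9, a transcription factor of regenerating tubule cells, rose in KO mice (adjusted p = 0.0240), with a difference of 1.73 ± 0.53 (adjusted p = 0.184). All 16 acute phase genes tested, which respond to interleukin-6 through STAT3, had differences above 0, with a median of 1.11. Without the 3 libraries 14 of 16 were above 0, with a median of 0.51, and the median was 0.56 with the surrogate variable. The fibrinogen chain genes Fgg and Fga had differences of 2.13 ± 0.68 and 1.80 ± 0.62.

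The DNA letters of the STAT motif, TTCNNNGAA, were searched on the 250 bases before each RefSeq start site (GRCm38.p6), where the palindrome reads the same on both strands. At least 1 match stood before 8.13% of all 27025 genes in the table, before 3 of the 12 acute phase genes and before 9 of the 30 interferon-stimulated genes matched by symbol. It stood before 3 of 26 tubular injury genes and 1 of 19 immediate early genes, and these letters were not found in the window of Fgg. The stretches below are printed for the fibrinogen genes Fga and Fgb of the acute phase list, for Irf1 of the interferon list and for Bcl6, a repressor in lymphocytes and an opposite-response gene, with the motif in capitals; they show the letters that the search found and no binding was measured. Bcl6 had further matches, 118, 168 and 122 bases before its start sites, and only the match at 88 bases is printed. The printed match lies inside the gene (chr16:23965052-23988852, minus strand), before an internal start site. The match at 118 bases lies before the gene. Stretches that overlap an annotated exon were left out.
Fga, chr3:83025903-83025947, plus strand: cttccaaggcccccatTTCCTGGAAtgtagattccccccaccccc
Fgb, chr3:83049997-83050045, minus strand: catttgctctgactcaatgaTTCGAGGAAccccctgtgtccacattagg
Irf1, chr11:53769904-53769952, plus strand: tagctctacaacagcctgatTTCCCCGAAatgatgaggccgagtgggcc
Bcl6, chr16:23981343-23981391, minus strand: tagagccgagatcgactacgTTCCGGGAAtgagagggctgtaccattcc

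Bcl6 had medians of 39.6 and 13.7 CPM in wild-type mice on NP and LP and of 19.8 and 42.0 CPM in KO mice. Its KO_LP libraries ran from 7.97 to 70.4 CPM and spanned those of the other groups. The effect was −1.23 ± 0.39 in wild type and 0.92 ± 0.39 in KO mice, with a difference of 2.15 ± 0.56 (adjusted p = 0.158). Zfp503, a zinc finger repressor, was the reverse, with an effect of 0.31 ± 0.09 in wild type and −0.23 ± 0.09 in KO mice. Of the 20 opposite-response genes with at least 5 CPM and an established symbol, 12 had a difference above 0 and 8 below 0.

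Genes of mitochondrial energy supply had small differences below 0 that ran through whole lists. Of 76 nuclear genes of oxidative phosphorylation, 41 had an unadjusted p under 0.05, against 16.0% of all genes. All 76 had a difference below 0, with a median of −0.32. Their wild-type estimates were split, 38 above and 38 below 0, while all 76 KO estimates were below 0 and 26 of 76 fell in KO mice, against 3.58% of all genes tested. The median was −0.28 without replicate 1 of WT_NP and −0.21 without the 3 libraries, with all 76 still below 0, and −0.08 with the surrogate variable, with 67 below 0. No member passed the test in KO mice without the 3 libraries or with the surrogate variable, where 36 and 4 of all genes did. The 41 at an unadjusted p under 0.05 became 22 and 26 without replicates 1 and 6 of WT_NP, 27 and 21 without replicates 1 and 2 of WT_LP, 24 without replicate 5 of KO_NP, 65 and 21 without replicates 1 and 4 of KO_LP and 11 without the 3 libraries. Atp5g1, a subunit of the ATP synthase ring, had medians of 135 and 143 CPM in wild-type mice on NP and LP and of 144 and 105 CPM in KO mice. It fell in KO mice (adjusted p = 0.0124), and the difference was −0.53 ± 0.13 (adjusted p = 0.158).

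The other mitochondrial lists had the same order. All 22 genes of the citric acid cycle and pyruvate entry were below 0, with a median of −0.31, as were all 8 tested mitochondrially encoded genes, with a median of −0.49. These medians were −0.18 and −0.30 without the 3 libraries and −0.08 and −0.21 with the surrogate variable. The mitochondrially encoded share of counts was 25.3% ± 1.97 (SD, n = 6) in WT_NP, 25.9% ± 1.23 in WT_LP, 28.1% ± 1.54 in KO_NP and 23.1% ± 2.66 in KO_LP. Of 55 genes of amino acid breakdown, 52 were below 0, with a median of −0.36. An unadjusted p under 0.05 was found in 24 of 55, against 16.0% of all genes. The median was −0.19 without the 3 libraries, with 11 at that p, and −0.07 with the surrogate variable, with 8 at that p. Mccc2, a subunit of the leucine breakdown enzyme methylcrotonyl-CoA carboxylase, had medians of 22.6 and 22.6 CPM in wild-type mice and of 22.0 and 14.3 CPM in KO mice on NP and LP. It fell in KO mice (adjusted p = 0.0165), with a difference of −0.68 ± 0.17 (adjusted p = 0.158). Proximal tubule S1/S2 markers moved with these lists: 13 of 15 were below 0, with a median of −0.37 (−0.22 without the 3 libraries and −0.12 with the surrogate variable), and their part in these values was not tested.

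**Figure D5:**
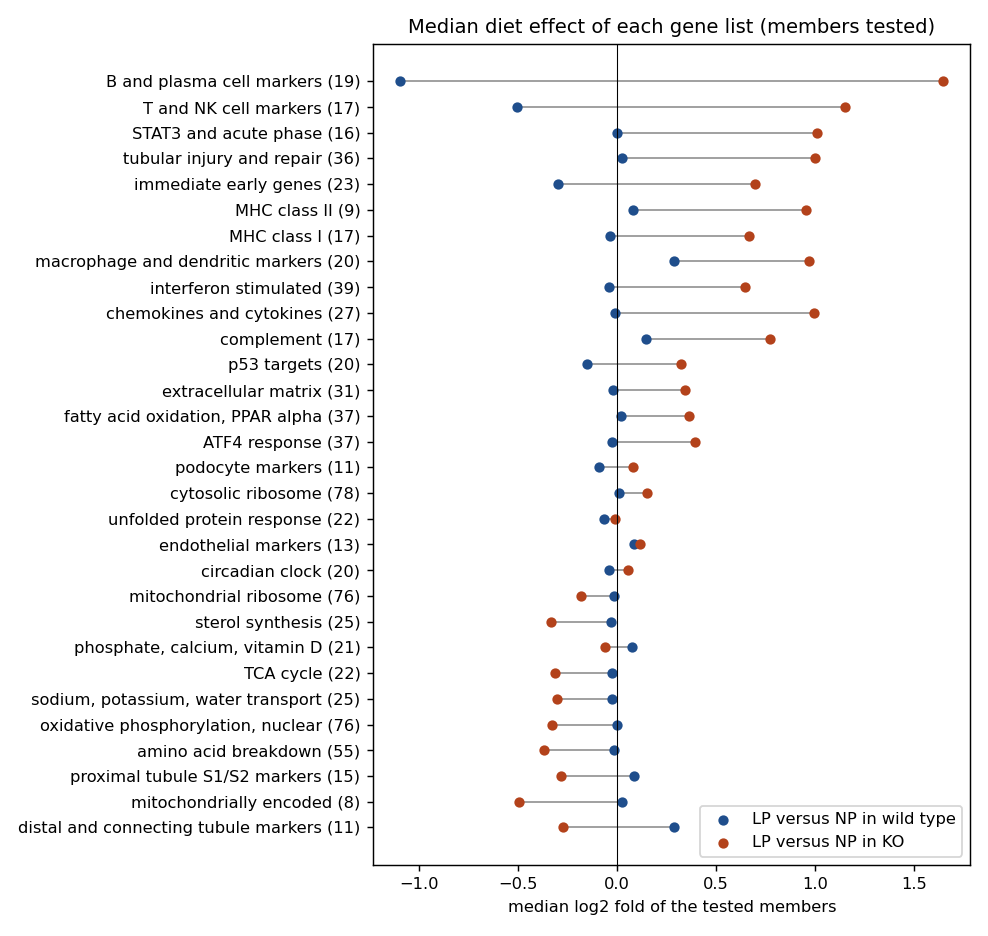
Median log2 effect of low protein over the tested members of 30 gene lists, in wild-type (blue) and KO mice (red); the number of members is in brackets and lists are ordered by their median difference. B and plasma cell markers are farthest apart, at −1.09 and 1.65, and the wild-type medians of the mitochondrial lists lie near 0.

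Genes of fatty acid oxidation and targets of the fatty acid receptor PPAR alpha formed another list. Of 37 members tested, 27 had a difference above 0. An unadjusted p under 0.05 was found in 9 of those, against 9.88% of all genes. The median of 0.38 was 0.13 without replicate 6 of KO_LP, with 4 members at that p, 0.19 without the 3 libraries and 0.67 with the surrogate variable.

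Some lists had medians near the 0.03 over all genes. Fatty acid synthesis genes had a median of −0.01 with 0 of 16 at an unadjusted p under 0.05, constitutive proteasome subunits −0.07 with 0 of 31, endothelial markers 0.02 with 1 of 13 and clock genes −0.03 with 3 of 20. Cytosolic ribosomal protein genes lay slightly above, with 71 of 78 above 0 and a median of 0.14, which was 0.09 without replicate 3 of KO_NP. Extracellular matrix genes had a median of 0.39 with all libraries, 0.06 without replicate 1 of WT_NP, 0.19 without replicate 4 of KO_LP, −0.07 without the 3 libraries and −0.47 with the surrogate variable, so the side of 0 depended on the fit.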

How the data were processed

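Per the labels' protocols, QuantSeq libraries of kidney cortex were read for 50 bases from 1 end. The authors deposited whole-number read counts per gene and a second table of normalized counts, which is a signal value equal to each count divided by 1 size factor per library. GRCm38 and DESeq2 1.22.2 are named in the submitters' processing notes; the sources used here do not give the aligner, the counter or its use of strand. Deposited tables hold genes with a mean count of at least 3.

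The difference was fitted on the counts with edgeR 4.0.16 (robust quasi-likelihood, TMM, filterByExpr, 4 group means, 5 contrasts, two-sided), with Benjamini-Hochberg adjustment over 15165 genes and calls at an adjusted p under 0.05. Each SE printed is the size of the log2 estimate divided by the square root of its F statistic, so it is derived from the test. Alternatives used DESeq2 1.42.0, limma 3.58.1 and sva 3.50.0. The normalized signal entered only the limma fit, as log2(value + 1). The procedure was run on simulated counts that held no libraries standing apart, so that run does not show how the test behaves with such libraries. Libraries carry separate animal identifiers and no batch label; no 2 of them held identical counts.

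Named genes are the 20 with the smallest p, added because under 10 genes were called, with Fgfr1 and Kl. After the values were seen, members with small p in each of 57 lists and opposite-response genes were added. The lists and the question were chosen with earlier results of these data known, so no list was tested. Sequences come from RefSeq (GRCm38.p6).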

Additional observations from a re-analysis of the deposited data

Results flagged for a closer look

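In 116 groups of 6 libraries examined, 14 had an extreme library whose gap to its nearest neighbour exceeded Dixon's critical share of the range. Chance does so in about 1 in 20 groups of independent, normally distributed values. Most values here were CPM of genes chosen for small p in the same libraries, so the 14 cannot be compared with that rate. Replicate 1 of WT_NP accounted for 5 of the 14. It was the highest of its group for Ighg2c (256.3 CPM), Krtcap3 (8.753 CPM), the macrophage and dendritic marker level (4.868) and the T and NK marker level (2.655), and the lowest for Pyurf (30.43 CPM). The other WT_NP libraries were replicate 2 for Inava (10.57 CPM, highest) and replicate 4 for Gm43190 (3.652 CPM, highest).

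Replicate 3 of WT_LP was the highest for S1pr4 (2.538 CPM) and for the T and NK marker level (2.454). Replicate 1 of KO_NP was the highest for Gm26532 (5.95 CPM) and Ighg2c (99.93 CPM). In KO_LP, replicate 1 had the lowest total count (8.469 M), and replicate 6 the lowest Riox2 (13.61 CPM) and the highest adipocyte marker level (5.837). Marker levels are means of log2(CPM + 1), and the causes were not tested.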

How the results depend on the processing

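No paired analysis was possible because the labels give animal identifiers and no replicate numbers shared between groups. Normalization and filter settings left the difference at 0 calls. DESeq2 gave 117 calls for the difference, 16 for the diet in wild type (voom 6), 1839 for the diet in KO mice (voom 1744), 246 for KO against WT on NP (voom 154) and 910 on LP (voom 904). With 1 surrogate variable the counts were 4 for the diet in KO mice, 290 for KO against WT on LP and 1121 for the difference at an unadjusted p under 0.05. Without the 3 libraries that stood apart, a choice made after seeing the data, they were 36, 200 and 978. The cause was not tested. Opposite responses numbered 28 under at least 5 CPM in 6 libraries, 28 with the surrogate variable and 21 without the 3 libraries, against 51.

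Leaving out 1 library at a time gave 0 calls for the difference throughout, 1671 to 2973 genes at an unadjusted p under 0.05, and 20 (without replicate 1 of WT_NP) to 151 (without replicate 3 of WT_LP) opposite responses. The diet in KO mice ranged from 122 calls (without replicate 5 of KO_NP) to 2006 (without replicate 1 of KO_LP), and the diet in wild type from 0 to 2. KO against WT ranged from 52 (without replicate 1 of KO_NP) to 151 (without replicate 6 of KO_LP) on NP and from 180 (without replicate 1 of WT_LP) to 733 (without replicate 3 of WT_LP) on LP. None of the 20 genes with the smallest p, nor Fgfr1 or Kl, reversed under any setting. The other genes named were not followed across all settings. Of the 2430 genes at an unadjusted p under 0.05, 1590 (65.4%) had it with the same sign without replicate 1 of WT_NP, and 838 (34.5%) without the 3 libraries. Genes near 1 CPM, such as S1pr4 and Icos, rest on few counts per library.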

Other observations

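Markers of the renal pelvis, which is lined by urothelium, were low and uneven. All 5 tested members had a difference above 0, with a median of 1.31, but their wild-type estimates were all below 0, with a median of −1.75, and the KO median was −0.01. Without replicate 4 of KO_NP the median difference was 3.16. Psca, a urothelial surface protein, had means of 7.06 and 2.11 CPM in wild-type mice on NP and LP and of 3.51 and 6.96 CPM in KO mice, and a difference of 2.76 ± 0.78 (adjusted p = 0.170).

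Podocyte markers were above 0 in 10 of 11 members, with a median of 0.21. That median was 0.10 and 0.31 without replicates 1 and 3 of WT_NP, 0.33 without replicate 6 of WT_LP, 0.13 without replicate 5 of KO_NP and −0.10 with 1 surrogate variable, on the other side of 0. Wt1, a podocyte transcription factor, rose in KO mice (adjusted p = 0.0156), with a difference of 0.71 ± 0.20 (adjusted p = 0.169). Cdkn1c, a cell cycle inhibitor of podocytes, had an effect of −0.94 in wild type and −0.16 in KO mice. Of 20 p53 targets, 19 had estimates of opposite sign in the 2 genotypes, against 7451 of all 15165 genes, with medians of −0.15 in wild type and 0.32 in KO mice. Without replicate 1 of WT_NP it was 15 of 20, against 5947 of 15217 genes, and the wild-type median was −0.01. The difference had an unadjusted p under 0.05 in 8 of 20, against 16.0% of all genes, and 7 of these were above 0 and 1 below 0. That count was 3 without replicate 1 of WT_NP, with 2 above 0 and 1 below 0, and 4 without replicate 6 of KO_LP. Without the 3 libraries that stood apart it was 1, which lay below 0. In KO mice no member rose and 1 of 20 fell at an adjusted p under 0.05, against 3.59% and 3.58% of all genes tested.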
